A study of Mus musculus with 4 samples.

Results

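The calcium release unit of the muscle triad was followed through its 10 genes Ryr1, Ryr3, Cacna1s, Cacnb1, Cacng1, Stac3, Jph1, Jph2, Trdn and Jsrp1. These members were a set of gene symbols, found by matching runs of exon and intron lengths of assembled transcripts to a mouse annotation, and all 10 were found among 12960 genes named in the series. Growing cells had a value for 8 of them, since Trdn and Jsrp1 were not assembled there, and each later library had a value for all 10.

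Muscle contracts when the voltage sensor of the transverse tubule, the L-type calcium channel, triggers the ryanodine receptor of the sarcoplasmic reticulum to release calcium. Junctophilins hold the membranes of tubule and reticulum together, and proteins of the reticulum such as triadin tie the release channel to the calcium-storing calsequestrin. In skeletal muscle the sensor and the release channel touch each other, so release needs no calcium entry, and the unit forms as myoblasts become myotubes.

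Polyadenylated RNA of C2C12 cells, a mouse skeletal myoblast line labelled C57BL/6, was sequenced in 4 libraries with 1 library for each time. The growth library came from dividing cells in high serum (-24 h), and the others came from cells 60 h, 120 h and 168 h after the change to low serum, and the labels name no genetic manipulation. C2C12 is a single cultured line, the labels name no separate cultures, and with no replicates no test is possible and no p-value is given. In a culture that holds fused and unfused cells, fewer cells of a type and less RNA per cell cannot be told apart.

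Libraries held 24488680 to 48228889 fragments, with the 120 h library the shallowest. Values are FPKM, a fragment count per kilobase scaled to library size. The ± is built from the distance between each transcript's value and its deposited upper confidence limit. It covers counting and the division of fragments between transcripts but no variation between cultures. Each gene has a sum over its assembled transcripts and a value through introns. For the value through introns, the FPKM of the transcripts crossing each intron is added. The median is then taken over the gene's introns assembled in that library. Introns not assembled there do not lower it, so a gene assembled in part can have too high a value. The sum counts a gene more than once where the assembly broke it into pieces, so both are given. For a sum, the ± is the square root of the transcripts' summed squared distances. Through introns, the ± is the median over introns of such roots, taken apart from the median value. For a gene with several transcripts it is thus derived and not a deposited interval. A gene is called higher or lower when FPKM + 1 differs by 2-fold or more, the larger value is 1 FPKM or above, and the intervals given by the ± lie apart. The added 1 makes changes of low genes look smaller than they are, and the folds printed are plain ratios of FPKM. Skeletal muscle markers were present: Myog, Des, Ckm, Myh3 and Acta1, 5 of 6 markers, were higher at 60 h than in growth by both measures, against 8.27% of all genes. Myod1 was assembled in every library, at 193, 215, 134 and 86.1 FPKM in the order of time. It was not called at 60 h and was lower at 168 h than in growth by both measures, against 14.4% of all genes. Of 5 cardiac markers Nppa and Myl7 were not assembled, and of 5 neuron markers Snap25, Syt1 and Rbfox3 were not. The other cardiac markers moved in different ways by the sum: Tnni3 had 0.597, 17.2, 15.4 and 4.66 FPKM in the order of time, with no value through introns at 60 h, Nkx2-5 had 2.89, 0.777, 2.29 and 2.01 FPKM, and Nppb had 1.48 and 0.271 FPKM in growth and at 60 h and was not assembled later. Of the neuron markers, Tubb3 had 90.6, 48.4, 24.7 and 4.50 FPKM and Gap43 stayed between 1.27 and 2.06 FPKM by the sum. Summed through introns, the cardiac list had 3.22, 1.05, 16.2 and 6.01 FPKM and the neuron list 90.6, 49.7, 26.2 and 6.56 FPKM, and their part in the results was not tested.

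The 60 h library differed from growth in nearly the whole set. By the sum, 8 of 10 members were called higher at 60 h and 1, Ryr3, was called lower. Over all 12622 genes compared, 11.0% were called higher and 15.4% lower. Through introns 9 of 10 members were higher and 0 lower, against 11.1% and 11.4% of 12482 genes. By both measures together 8 members were higher (Ryr1, Cacna1s, Cacnb1, Cacng1, Stac3, Jph2, Trdn and Jsrp1) and 0 lower, against 8.27% and 9.33% of 12452 genes. With fragments counted over all assembled exons of a gene together (their union) all 10 members were higher, against 11.1% of 12622 genes higher and 10.2% lower. The members' median log2 ratio was 2.66 by the sum and 2.81 through introns, against -0.18 and -0.09 over all genes. Over the 8 members with a value in both libraries the medians were 1.91 and 2.51, against -0.25 and -0.18 over all genes with a value in both. By the sum 6 of these 8 members were higher and 1 lower, against 868 and 1759 of 11246 such genes. Trdn and Jsrp1 were called against a growth value entered as 0. All 10 members reached 1 FPKM in the higher library.

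**Figure D1:**
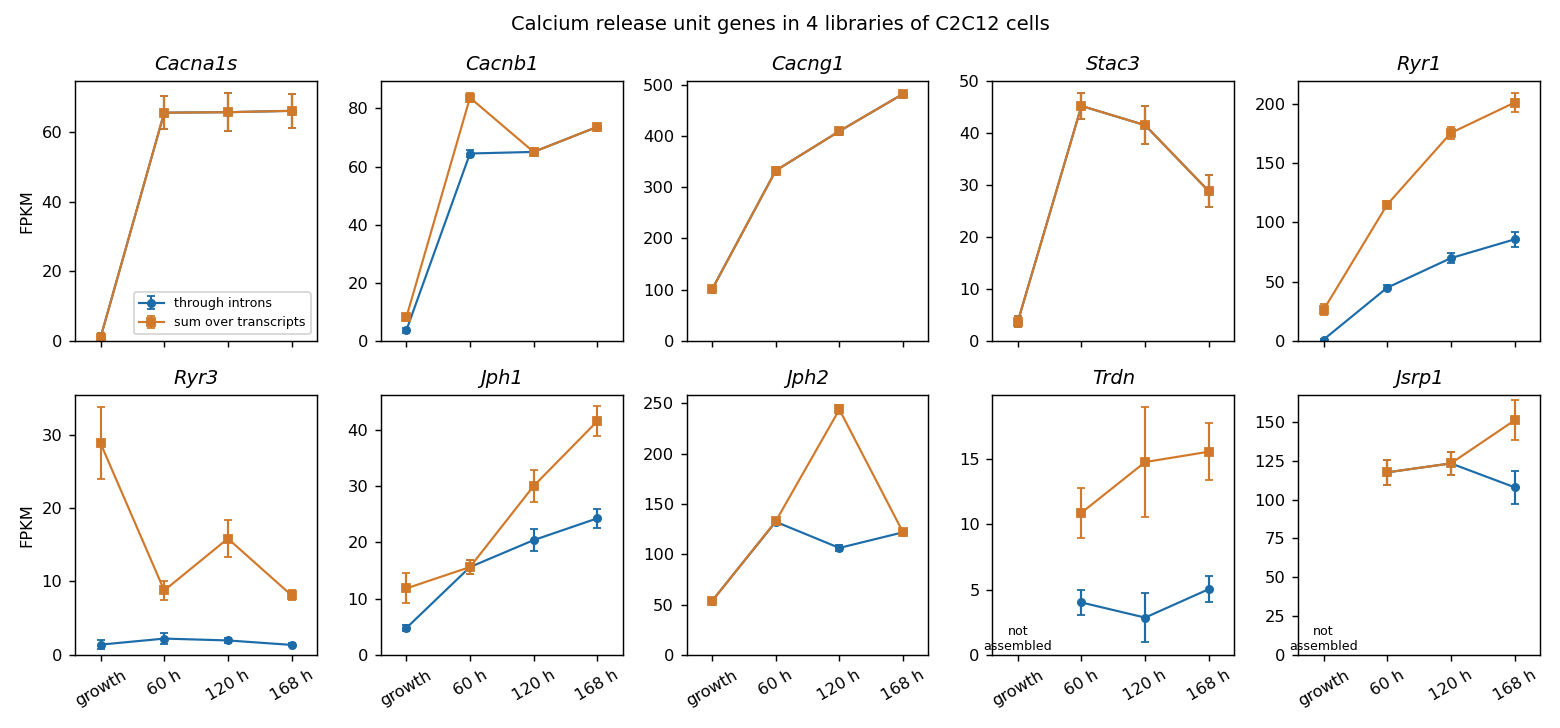
FPKM (linear axis from 0) of each member in the 4 libraries, as the sum over transcripts (squares) and through introns (circles), with the ± width as bars. Cacna1s is level near 66 FPKM from 60 h on, Ryr1 through introns reaches 85.6 FPKM at 168 h, and Trdn and Jsrp1 have no value in growth.

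Cacna1s, the pore and voltage sensor of the skeletal L-type channel (files' coordinates chromosome 1, 137949274 to 138016399), was assembled as 1 intron of 44 in growth, on 2 fragments, where introns are counted out of those assembled in any library. The same gene had 65.6 ± 4.77, 65.7 ± 5.40 and 66.1 ± 4.86 FPKM at 60 h, 120 h and 168 h, on 20083, 10018 and 18302 fragments. The growth library was the low one, the 3 later intervals overlapped, and no fold is given against 2 fragments. Cacnb1, the channel's intracellular beta subunit (chromosome 11, 97862673 to 97883945), had 3.55 ± 0.743, 64.5 ± 1.34, 65.0 ± 1.40 and 73.6 ± 1.11 FPKM through introns in growth, 60 h, 120 h and 168 h cells. It was 18.2-fold higher at 60 h than in growth by that value and 10.4-fold higher by the sum. From 60 h on Cacnb1 lay close to Cacna1s, with ratios of Cacnb1 to Cacna1s through introns of 0.984, 0.990 and 1.11. Their intervals overlapped at 60 h and 120 h and did not at 168 h. Of Cacna1s, 16.3% of words of 50 bases also occur in other genes on either strand, most often in Gm37759. The same was true of 2.68% for Ryr1 (most often Gm26604), 4.27% for Ryr3 (Aven) and 0.665% for Cacnb1 (Gm11629). Each gene named here has exons that overlap the member on the opposite strand, and fragments there cannot be told apart by strand. An exon of Gm28376 overlaps Jph1 on the opposite strand with no shared word of that length, and no annotated exon of another gene overlapped the other 5 members.

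Cacng1, the gamma subunit (chromosome 11, 107564413 to 107577938), was already at 101 ± 3.15 FPKM in growth and had 333 ± 6.49, 409.6 ± 7.02 and 482 ± 5.61 FPKM at 60 h, 120 h and 168 h. It was the highest member in all 4 libraries, and its interval lay apart from that of the next member in each. The 60 h library was 3.31-fold above growth, and the later steps of 1.23-fold and 1.18-fold were not called. Stac3, an adaptor needed for coupling the sensor to the release channel (chromosome 10, 126938733 to 126945878), had 3.70 ± 1.13 FPKM in growth and 45.2 ± 2.54, 41.5 ± 3.63 and 28.8 ± 3.11 FPKM at 60 h, 120 h and 168 h. Growth was lowest and 60 h was 12.2-fold above it. The 168 h library had 0.694 times the 120 h level of Stac3, with intervals apart but under the 2-fold rule. Against Cacna1s, Stac3 stood at 0.690, 0.632 and 0.436 in those later libraries.

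Ryr1, the skeletal ryanodine receptor through which stored calcium leaves (files' coordinates chromosome 7, 29788359 to 29910227), had 0.974 ± 0.606 FPKM through introns in growth. At 60 h, 120 h and 168 h it had 44.9 ± 2.25, 69.8 ± 4.37 and 85.6 ± 6.59 FPKM. Each library lay above the one before it with intervals apart, although only the first step passed the 2-fold rule. At 60 h all 105 introns were assembled on 35739 fragments, against 45 of 105 introns in 25 pieces on 253 fragments in growth. The sum gave 115 FPKM at 60 h against 26.1 FPKM over those 25 pieces in growth, a 4.41-fold difference, while the value through introns gave 46.0-fold and fragments over the union of exons gave 83.5-fold. In the later libraries the gene was broken once, and the 3′ piece of 16 exons stood at 70.2, 106 and 116 FPKM, above the 5′ piece of 90 exons at 44.9, 69.8 and 85.6 FPKM.

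Ryr3, the second muscle ryanodine receptor, known from developing muscle and diaphragm (chromosome 2, 112471522 to 113057230), was the lowest member through introns at 60 h, 120 h and 168 h, with an interval that overlapped that of Trdn at 120 h. It had 1.40 ± 0.631, 2.22 ± 0.737, 1.97 ± 0.338 and 1.36 ± 0.212 FPKM through introns in the growth, 60 h, 120 h and 168 h libraries. These intervals overlap from growth to 120 h, and no step was called. The sum instead gave 8.77 FPKM over 6 transcripts at 60 h against 28.8 FPKM over 24 pieces in growth, and so called Ryr3 lower, while fragments over the union of exons gave 2.32 FPKM at 60 h against 0.564 FPKM in growth and called it higher. The direction of Ryr3 at 60 h against growth therefore differs between the 3 measures. Introns assembled numbered 25 of 100 in growth and 100, 82 and 90 later. Fragments of Ryr3 numbered 248 in growth and 1727, 667 and 915 later. The growth and 60 h libraries held 28513976 and 48228889 fragments. The ratio of Ryr1 to Ryr3 through introns was 0.697 in growth, where their intervals overlapped, and 20.2, 35.5 and 62.9 at 60 h, 120 h and 168 h. The growth ratio compares medians over 45 of 105 Ryr1 introns and 25 of 100 Ryr3 introns. Over the union of exons Ryr1 and Ryr3 had 0.558 ± 0.0702 and 0.564 ± 0.0716 FPKM in growth.

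**Figure D2:**
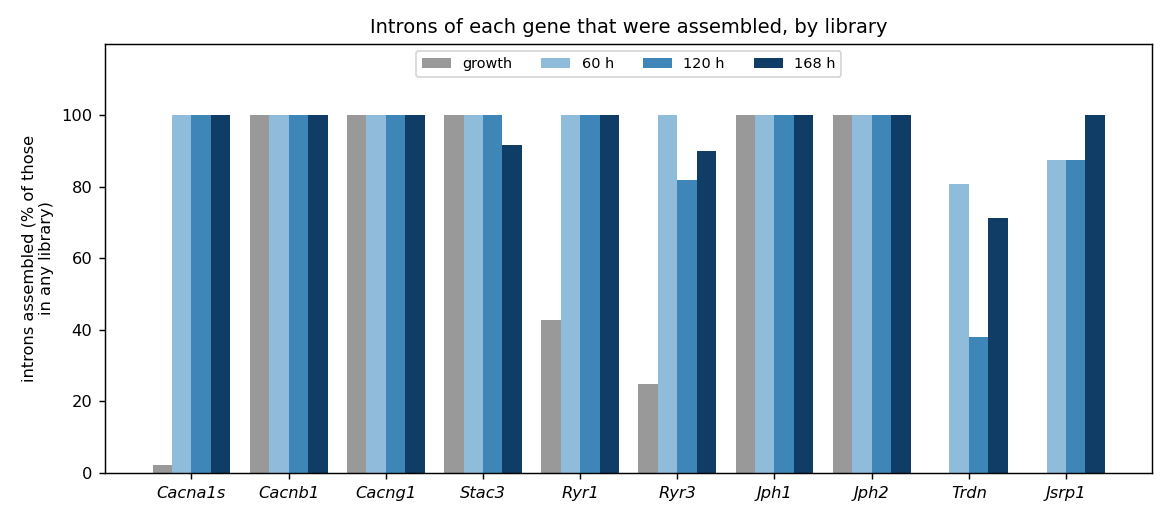
Share of each member's introns (percent of the introns assembled in any library) that were assembled in each library. Growth has 2.27% for Cacna1s, 42.9% for Ryr1, 25.0% for Ryr3 and none for Trdn and Jsrp1, while Cacnb1, Cacng1, Stac3, Jph1 and Jph2 are complete there.

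Jsrp1 (files' coordinates chromosome 10, 80271179 to 80276289), a reticulum membrane protein that binds the L-type channel and calsequestrin, was not assembled in growth. The sum gave 118 ± 8.22, 123 ± 7.44 and 151 ± 12.9 FPKM at 60 h, 120 h and 168 h, and through introns the values were 118, 123 and 108 FPKM. In growth an unnamed transcript with 11.7 FPKM lay on its exons, and such transcripts had 3.63 and 3.71 FPKM at 60 h and 168 h. The protocol marks no strand, so fragments of the gene and of that transcript cannot be told apart. Trdn, which encodes triadin (chromosome 10, 32803029 to 33194652), was likewise not assembled in growth. It had 4.01 ± 0.961, 2.86 ± 1.86 and 5.03 ± 1.01 FPKM through introns at 60 h, 120 h and 168 h, with overlapping intervals. These medians run over 17, 8 and 15 assembled introns, of 21 assembled in any library. Over the union of exons Trdn had 3.20 ± 0.529, 2.33 ± 0.455 and 4.75 ± 0.671 FPKM. By that measure the 168 h interval lay above both earlier ones, and the step from 120 h to 168 h was not called. The annotated transcript that holds its alternative exons has 38 exons, so the assembly covers part of the gene. Fragments were few, 394, 146 and 532, so its later course was not resolved at this depth.

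Both junctophilins had all their introns assembled in growth. Jph2, the form shared with heart (chromosome 2, 163161952 to 163224168), had 53.6 ± 1.27, 132 ± 1.59, 106 ± 3.0 and 122 ± 1.60 FPKM through introns in growth, 60 h, 120 h and 168 h cells. It was 2.47-fold higher at 60 h than in growth. At 120 h the assembly split Jph2 in 2 pieces of 137.5 and 106 FPKM, and the sum of 244 FPKM there counts both. Jph1, the skeletal form (chromosome 1, 16985041 to 17087943), had 4.76 ± 0.523, 15.6 ± 1.30, 20.4 ± 2.01 and 24.2 ± 1.65 FPKM through introns. It was 3.27-fold higher at 60 h than in growth by this value and 1.32-fold by the sum, which was not called and which in growth includes 3 single-exon pieces. The ratio of Jph2 to Jph1 through introns was 11.2, 8.48, 5.22 and 5.03 in the order of time.

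After 60 h no member passed the 2-fold rule from one library to the next. Between 120 h and 60 h, 0 of 10 members were called in either direction by the sum, against 16.2% of all genes, and 0 through introns, against 8.78%. Between 168 h and 120 h again 0 members were called by either measure, against 14.2% of all genes by the sum and 8.72% through introns. The largest log2 ratios through introns were 0.63 for Ryr1 at 120 h against 60 h and 0.65 for Trdn at 168 h against 120 h. Between 168 h and growth 9 members were called higher by both measures and 0 lower, against 12.4% and 14.4% of 12464 genes. By the sum alone 9 were higher and Ryr3 was lower, against 15.5% and 18.5%, and through introns 9 were higher and 0 lower, against 15.7% and 18.2%. These comparisons share libraries with one another.

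**Figure D3:**
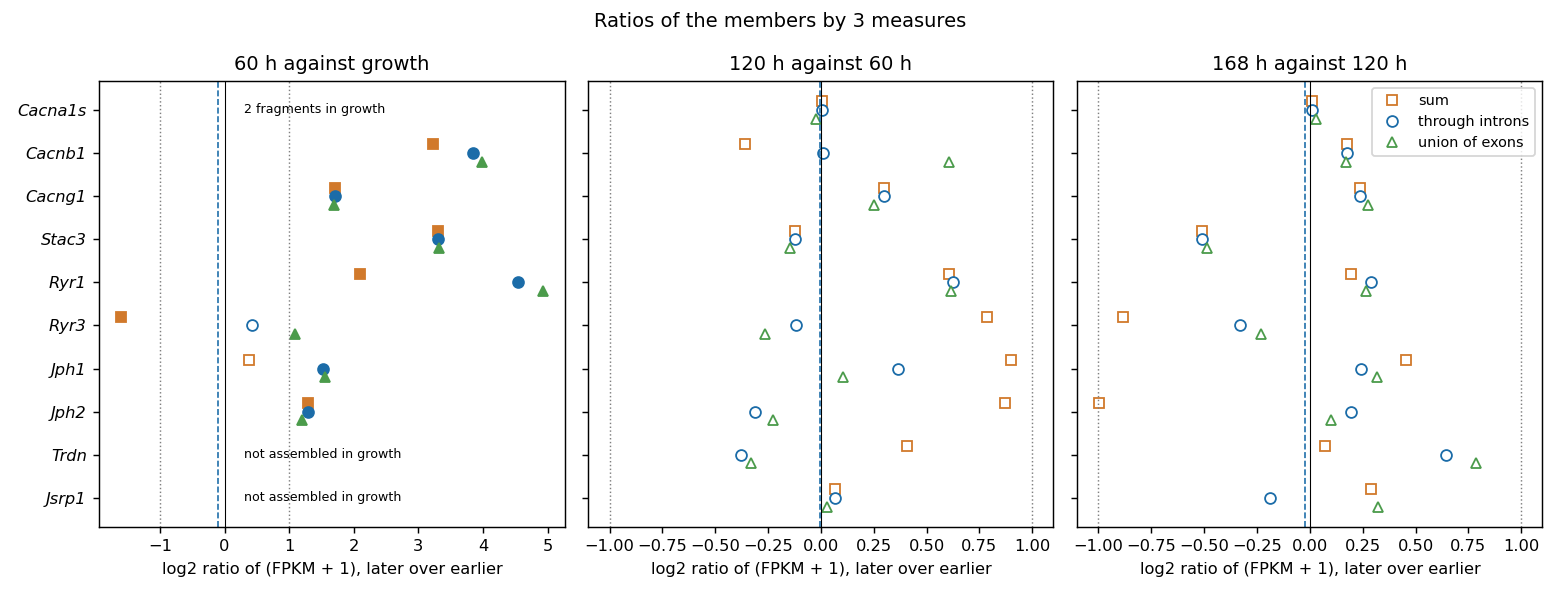
Log2 ratio of (FPKM + 1), later over earlier, for each member by 3 measures, filled where called, with dotted lines at 2-fold and a dashed line at the median of all genes through introns, and with no ratio drawn for Cacna1s, Trdn and Jsrp1 against growth. At 60 h against growth the ratios through introns of 6 members with values plotted are filled and Ryr3 is open, and in the later steps all symbols are open.

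In order of level through introns, Cacng1 and Jph2 led in growth, followed by Jph1, Stac3 and Cacnb1, of which neighbours overlapped, and by Ryr3, Ryr1 and Cacna1s, whose intervals overlapped as well. At 60 h the order was Cacng1, Jph2, Jsrp1, Cacna1s, Cacnb1, Stac3, Ryr1, Jph1, Trdn and Ryr3. Cacna1s overlapped Cacnb1 and Stac3 overlapped Ryr1, and the other neighbours were apart. At 168 h Ryr1 had rank 4, between Jsrp1 and Cacnb1 and apart from each, and the ratio of Ryr1 to Cacna1s through introns was 0.684, 1.06 and 1.30 at 60 h, 120 h and 168 h. These are levels per kilobase.

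Assembled transcripts also carry the choice of exons, and 10 annotated or assembled cassette exons of the members were spanned by at least 1 FPKM. Ryr1 has a pair of small exons known to be included more in adult than in fetal muscle, and Cacna1s has one in the loop before the last voltage-sensing helix that fetal muscle often leaves out. Their sequences are shown because they set apart the forms of the release channel and its sensor. They were read from the annotated GRCm38 transcripts, with the exon in capitals and spliced neighbouring bases in lower case, all in gene direction. The exons lie at chr7:29044919-29044936 (minus strand, Ryr1 exon 83 of 106), chr7:29056234-29056248 (minus strand, Ryr1 exon 70 of 106), chr2:112681735-112681749 (minus strand, Ryr3 exon 70 of 104) and chr1:136104570-136104626 (plus strand, Cacna1s exon 29 of 44), and each has a length that is a multiple of 3.
Ryr1, exon of 18 bases: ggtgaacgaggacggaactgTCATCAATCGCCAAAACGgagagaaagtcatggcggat
Ryr1, exon of 15 bases: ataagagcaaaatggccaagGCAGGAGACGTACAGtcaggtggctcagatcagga
Ryr3, exon of 15 bases: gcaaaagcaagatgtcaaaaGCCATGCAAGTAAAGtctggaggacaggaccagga
Cacna1s, exon of 57 bases: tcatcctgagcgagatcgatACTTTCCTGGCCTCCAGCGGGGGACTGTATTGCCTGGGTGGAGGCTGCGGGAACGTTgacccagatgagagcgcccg
The 15-base exons of Ryr1 and Ryr3 share 8 of 15 bases, and the bases on each side share 26 of 40.

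The Cacna1s exon of 57 bases was used in part in every later library. Transcripts with it had 30.4 ± 3.35, 24.9 ± 3.78 and 43.7 ± 3.45 FPKM at 60 h, 120 h and 168 h, and those without it had 35.2 ± 3.39, 40.8 ± 3.86 and 22.3 ± 3.43 FPKM. The share with the exon was 46.3% (41.2% to 51.5%), 37.9% (32.1% to 43.7%) and 66.2% (61.0% to 71.4%), where the bounds come from the confidence limits of the forms. The 168 h share lay above the other two with intervals apart, while the gene's total stayed near 66 FPKM. At 120 h the transcript with this exon also joined to an acceptor that is not in the annotation, 9 bases from the usual one, so the share there rests on an unannotated chain. In growth neither form was assembled.

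The Ryr1 exon of 18 bases was present in 54.4% (50.8% to 57.9%), 43.7% (39.3% to 48.1%) and 50.7% (45.3% to 55.7%) of the FPKM that spans it at 60 h, 120 h and 168 h. The 60 h and 120 h intervals did not overlap, and the 168 h interval overlapped each. At those times 1 of 3, 1 of 3 and 1 of 5 Ryr1 transcripts had an intron chain within an annotated transcript, with 61.0%, 60.2% and 54.5% of the summed FPKM. That transcript belonged to the 3′ piece, so the forms with and without this exon rest on unannotated chains. In growth the 1 transcript that spans it, at 1.31 ± 0.634 FPKM, joined across it. The Ryr1 exon of 15 bases was held by no assembled transcript, although transcripts joining across it stood at 44.9, 69.8 and 85.6 FPKM. Ryr3 was joined across its own 15-base exon in the same way, at 2.79, 2.28 and 1.59 FPKM. An exon held by no assembled transcript can still be present below what the assembly reports. A further annotated Ryr1 exon of 21 bases and an annotated Ryr3 exon of 100 bases were held by none.

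**Figure D4:**
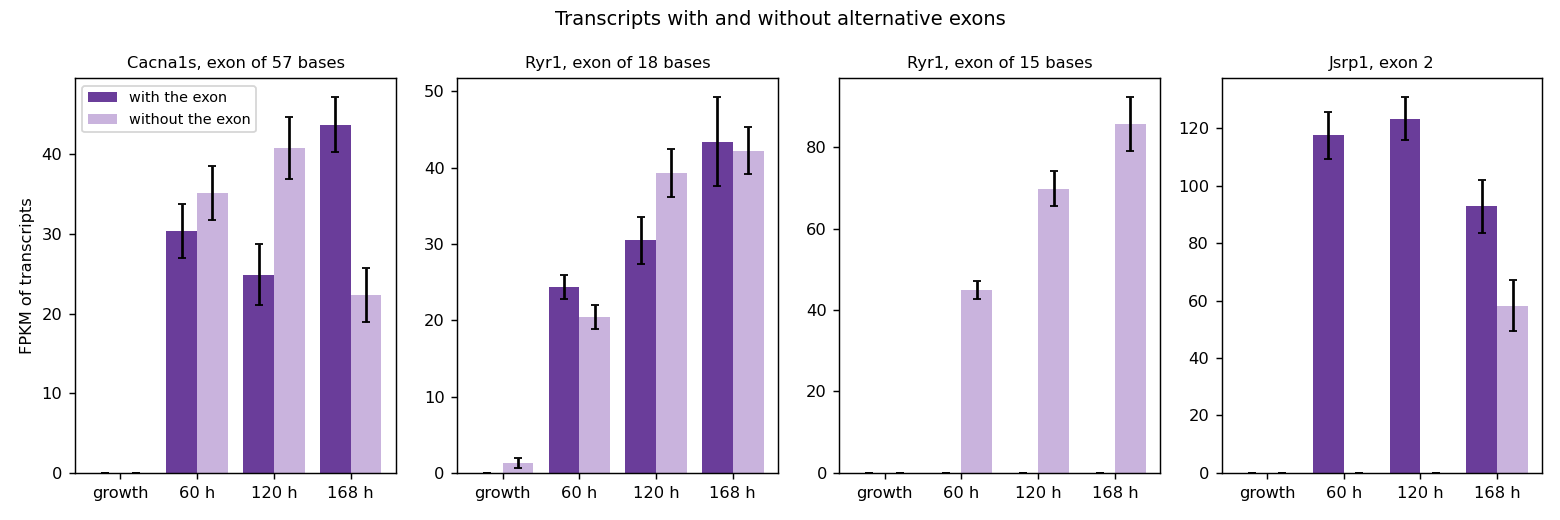
FPKM of assembled transcripts with (dark) and without (light) 4 alternative exons in each library, with bars for the ± width. The Cacna1s form with the exon is the higher at 168 h, the Ryr1 exon of 15 bases has only the form without it, and the Jsrp1 form without the exon of 123 bases appears at 168 h alone.

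Jsrp1 differed in form at 168 h. Every Jsrp1 transcript spanning exon 2, of 123 bases, held it at 60 h and 120 h. At 168 h transcripts without it had 58.2 ± 9.0 FPKM, and the share with it was 61.4% (55.4% to 67.5%). The intron joining across exon 2, of 1358 bases, has a length found in the annotation. Of the 4 Jsrp1 transcripts at 168 h, 1 had an intron chain within an annotated transcript. That transcript, at 19.6 FPKM, held exon 2, so the form without exon 2 rests on an unannotated chain. At 168 h a transcript of 64.9 ± 7.80 FPKM also used an intron of 698 bases that has no match in the annotation. Trdn exon 9, of 60 bases, was held in 78.5%, 83.7% and 90.2% of the FPKM spanning it at 60 h, 120 h and 168 h, with overlapping bounds. Trdn exon 4, of 33 bases, was held at 5.11 ± 0.961 FPKM at 60 h, and at 168 h transcripts joining across it had 5.68 ± 1.12 FPKM beside 5.03 ± 1.52 FPKM of a form that ended in the exon. The joining intron, of 18594 bases, has no match in the annotation. Ryr3 held its exon of 97 bases at 60 h (2.79 FPKM) and joined across it at 120 h (2.28 FPKM) and 168 h (1.59 FPKM). That joining intron, of 4575 bases, has no match in the annotation either, and the exon's length is not a multiple of 3. Jph1 carried an intron of 574 bases near its 3′ end that is not in the annotation, at 4.76, 7.01, 14.7 and 21.0 FPKM in the order of time.

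Promoters of 4 members were in the RefSeq table of GRCm38.p6. The 250 bases before each start are shown, 5′ to 3′, with the E-box letters CANNTG in capitals, and their part in the members' levels was not tested. They cover chr1:136052561-136052810 (plus strand, Cacna1s), chr2:163397994-163398243 (minus strand, Jph2), chr7:29125152-29125401 (minus strand, Ryr1) and chr11:98022628-98022877 (minus strand, Cacnb1).
Cacna1s: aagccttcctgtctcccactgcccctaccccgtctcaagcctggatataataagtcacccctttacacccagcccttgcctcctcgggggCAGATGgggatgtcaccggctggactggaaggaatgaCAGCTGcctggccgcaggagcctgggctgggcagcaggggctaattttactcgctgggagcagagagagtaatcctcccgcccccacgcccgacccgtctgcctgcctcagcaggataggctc
Jph2: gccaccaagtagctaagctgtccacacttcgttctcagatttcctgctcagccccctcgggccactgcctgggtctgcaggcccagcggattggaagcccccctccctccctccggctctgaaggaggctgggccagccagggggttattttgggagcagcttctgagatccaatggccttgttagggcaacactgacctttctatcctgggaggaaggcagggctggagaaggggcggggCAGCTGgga
Ryr1: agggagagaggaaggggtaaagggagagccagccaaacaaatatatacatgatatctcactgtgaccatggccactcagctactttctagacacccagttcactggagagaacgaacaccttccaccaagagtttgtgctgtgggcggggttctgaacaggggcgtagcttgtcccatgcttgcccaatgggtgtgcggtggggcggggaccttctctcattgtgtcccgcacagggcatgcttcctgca
Cacnb1: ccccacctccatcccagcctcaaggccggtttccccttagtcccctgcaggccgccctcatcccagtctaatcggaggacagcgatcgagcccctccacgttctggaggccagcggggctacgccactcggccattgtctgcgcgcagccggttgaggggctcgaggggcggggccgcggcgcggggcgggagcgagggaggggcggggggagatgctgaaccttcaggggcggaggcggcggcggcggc
Cacna1s had 2 matches of CANNTG, at 160 and 123 bases before its start, and Jph2 had 1 at 9 bases. The Jph2 match lies 29 bases before a second listed Jph2 start. Starts were compared with the nearest 5′ end of an annotated transcript whose first intron length was assembled. By this the second Jph2 start is the nearer (24 against 44 bases). Ryr1 and this Cacnb1 start had 0, while a second listed Cacnb1 start, 4255 bases from such a 5′ end, had 1 at 27 bases. Of 32851 promoters of this length 66.2% hold the motif, which was sought on both strands. The match of Jph2 and the Cacna1s match nearer the start read CAGCTG, a form held by 13% of those promoters. MEF2 sites and CArG boxes, sought on both strands, occurred in none of the 4, against 2.92% and 1.47% of all promoters. Promoters of Ryr3, Cacng1, Stac3, Jph1, Trdn and Jsrp1 are named only.

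Among 25 partner genes of the unit (calsequestrins, calmodulins, FK506-binding proteins, membrane-shaping proteins and others), 24 were assembled and 23 compared at 60 h with growth. By both measures 11 were higher (Casq1, Casq2, Hrc, Srl, Tmem38a, Tmem38b, Bin1, Mtm1, Cav3, Dysf and Pacsin3) and 0 lower, against 8.27% and 9.33% of all genes. The median log2 ratio was 0.46 by the sum and 1.13 through introns, against -0.18 and -0.09 over all genes. By the sum Casq2, a calsequestrin, had 235 FPKM at 60 h against 1.87 FPKM in growth. Tmem38a, a counter-ion channel of the reticulum, had 198 FPKM at 60 h against 9.89 FPKM in growth. Bin1, which shapes transverse tubules, had 448 FPKM at 60 h against 135 FPKM in growth. Srl and the muscle caveolin gene Cav3 had 234 and 203 FPKM at 60 h against 4.97 and 2.28 FPKM in growth by the sum, and 161 and 102 FPKM at 60 h against 3.59 and 1.14 FPKM in growth through introns. Calm3, a calmodulin gene, had 197 FPKM at 60 h against 247 FPKM in growth. At 168 h against growth 14 partners were higher by both measures and 2 were lower, among them Fkbp1a, against 12.4% and 14.4% of all genes. Fkbp1a, which binds the release channel, had 81.0 FPKM at 168 h against 178 FPKM in growth, and was named after its values were seen.

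Paralogs are close relatives of the members in other tissues or roles. Of 15, 11 were assembled and 9 compared at 60 h with growth, of which 1 (Cacng6, a gamma subunit gene, 8.51 FPKM at 60 h against 0.719 FPKM in growth by the sum) was higher by both measures and 0 lower, a share near the 8.27% and 9.33% of all genes. Their median log2 ratio was 0.02 by the sum and -0.16 through introns, against -0.18 and -0.09 over all genes. Cacnb3 had 45.3 FPKM at 60 h against 71.4 FPKM in growth, and Stac2 had 30.8 FPKM at 60 h against 30.4 FPKM in growth. The inositol trisphosphate receptors Itpr1, Itpr2 and Itpr3 had 6.21, 6.44 and 14.5 FPKM at 60 h against 15.2, 12.4 and 16.3 FPKM in growth by the sum, which called Itpr1 alone lower. Through introns they had 1.61, 3.59 and 14.5 FPKM at 60 h against 2.47, 2.39 and 16.3 FPKM in growth, with none called, so the direction of Itpr2 differs between the measures. Cacna1c, Cacna1d, Cacnb4 and Jph4 were not assembled in any library, and Ryr2 and Jph3 were assembled at 168 h alone. Of 5 genes that refill the store 4 were assembled and 3 (Atp2a1, Atp2a2 and Stim1) were higher at 60 h than in growth by both measures, against 8.27% of all genes. The median log2 ratio of those 4 was 1.73 by the sum and 1.37 through introns. The calcium pump genes Atp2a1 and Atp2a2 had 771 and 451 FPKM at 60 h against 2.57 and 142 FPKM in growth by the sum, and 771 and 231 FPKM at 60 h against 1.33 and 99.4 FPKM in growth through introns. By the sum Stim1, the store sensor, had 20.9 FPKM at 60 h against 5.33 FPKM in growth. Orai1, its channel, had 19.0 FPKM at 60 h against 9.40 FPKM in growth, under the 2-fold rule by the sum. Through introns Orai1 had 19.0 FPKM at 60 h against 8.16 FPKM in growth and was called higher.

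**Figure D5:**
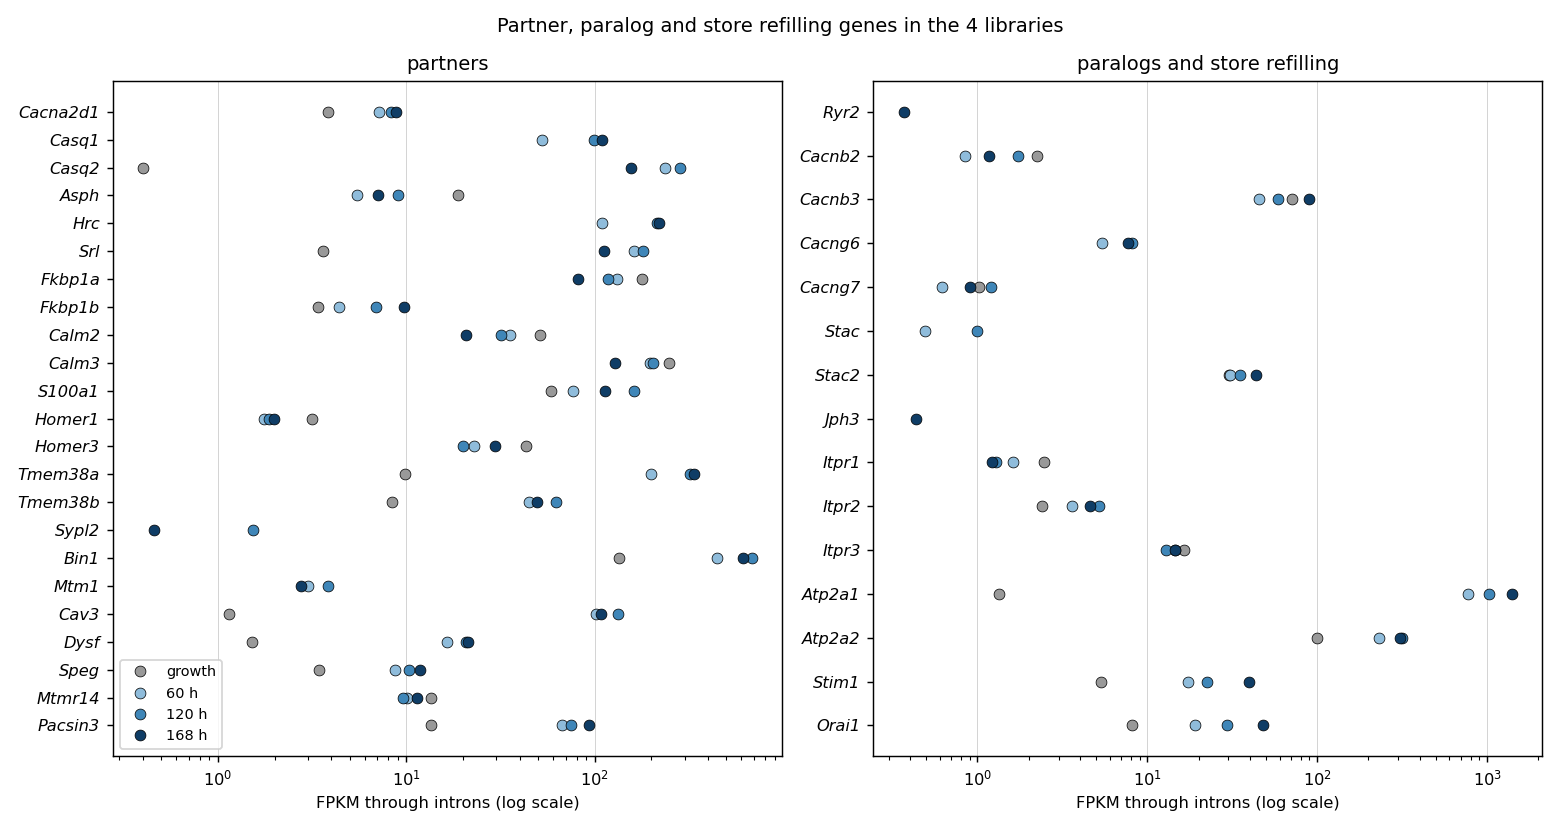
FPKM through introns (log axis) of partner genes (left) and of paralogs and store refilling genes (right) in the 4 libraries (1 partner is not shown), grey for growth and darker blue for later times, with no point where a gene had no value. Casq2, Tmem38a and Atp2a1 lie far to the right of their growth points, while Cacnb3 and Stac2 stay close to theirs.

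Genes with the profile closest to the members' median, over 4 libraries, were by the sum Dusp27, Aldh3b1, Hephl1, Tmem38b and AI464131, out of 7610 protein-coding genes that reached 10 FPKM. Their root-mean-square distance was 0.070 to 0.122 on the log2 scale after each profile's mean was removed. Through introns the closest of 6446 were Derl1, Fbn1, Atp9a, Porcn and Adamts1, and none was among the 5 found by the sum. Dusp27 had 4.71, 28.6, 40.7 and 42.1 FPKM in the order of time, and Derl1 had 12.98, 97.4, 94.6 and 102 FPKM.

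Smooth muscle markers moved the other way. At 60 h 3 of 4 (Tagln, Cnn1 and Actg2) were lower than in growth by both measures, against 9.33% of all genes, and Myh11 was assembled at 60 h alone, at 0.364 FPKM. Their summed level through introns was 966, 105, 41.1 and 14.4 FPKM in the order of time, and its part in the members' rise was not tested. Scaling also moved with the comparisons: rescaling by the median ratio over 10768 genes shifted the median of all genes by 0.21 at 60 h against growth, where all-gene calls became 1741 higher and 1377 lower in place of 1393 and 1946. The same rescaling shifted it by -0.18 at 120 h against 60 h (1161 higher and 642 lower in place of 1564 and 488), by 0.14 at 168 h against 120 h (658 and 987 in place of 524 and 1259) and by 0.17 at 168 h against growth. The members' counts of calls were 8, 0, 0 and 9 higher under it, as without it.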

How the data were processed

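Per the labels' protocols, polyadenylated RNA was fragmented, primed with random hexamers and read from both ends, with no step that marks strand. The authors deposited assembled transcripts with RPKM values and confidence limits, and per the file headers each line names Cufflinks. TopHat 1.0.13 and Cufflinks 0.8.0 are listed, without their roles, per the submitters' processing notes. The build was not given in the sources used here.

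The deposited values are called FPKM because their limits follow a count of fragments. In genes with 1 transcript the upper limit lies 2 square roots of the count above the value, which gave each library's size, and the implied low counts were whole within 0.01 for 93.38% to 94.29% of values.

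Names came from GENCODE vM21, by runs of intron, exon and intron lengths (122769 of 137519 introns) and then by length between named neighbours (5488). Coordinates of the files and of the annotation were not mixed. A single-exon transcript counted to a gene where 50% of it lay within that gene's exons. Unassembled genes entered ratios as 0 with a pseudocount of 1 FPKM, and no fold is given against them.

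The naming and the call rule were checked on simulated data. Python 3.11.15, numpy 2.4.6 and matplotlib 3.10.9 were used. The members and lists were chosen with earlier results of these data known. Values are given for all members and, from the partner, paralog and store refilling lists, for up to 6 genes each with the highest FPKM by the sum, other genes of these lists being named without values, and the 5 genes closest in profile are named. Values of Fkbp1a and of marker genes were added outside this rule. The values of 1 of the 25 partner genes, which is included in the counts, are not reported here. Alternatives were a pseudocount of 0.1, no minimum, a minimum of 5 FPKM, a 4-fold rule, median-ratio rescaling and other gene measures, plus genes with a value in both libraries, which was chosen after seeing the data. One library stands for each time point, so the limits cover no variation between cultures.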

Additional observations from a re-analysis of the deposited data

How the results depend on the processing

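No paired analysis was possible because each time point has 1 library and no test was run. The members called higher stayed within 1.5 times the main counts under every alternative tried. Members called lower fell to 0 at 60 h against growth and at 168 h against growth through introns, with multi-exon transcripts alone, over the union of exons and under the 4-fold rule, and a pseudocount of 0.1 FPKM called 1 member (Jph2) lower at 168 h against 120 h. The log2 ratio of Ryr3 turned positive at 60 h against growth, 0.43 through introns and 1.09 over the union, and at 168 h against growth, 0.59 over the union. All-gene counts moved as follows. At 60 h against growth, lower calls were 1284 over the union, calls under the 4-fold rule were 503 higher and 303 lower, and 868 were higher among genes with a value in both libraries. At 120 h against 60 h, lower calls were 318 with a minimum of 5 FPKM and 242 with a value in both libraries, higher calls were 524 through introns, 861 with multi-exon transcripts and 275 over the union, and the 4-fold rule gave 214 higher and 159 lower. At 168 h against 120 h, higher calls were 332 with a minimum of 5 FPKM and 287 with a value in both libraries, lower calls were 533 through introns and 329 over the union, and the 4-fold rule gave 150 higher and 189 lower. At 168 h against growth the 4-fold rule gave 706 higher and 617 lower. Each gene with few fragments, such as Trdn, Ryr3 or Cacna1s in growth, is limited by depth, and the cause of the Ryr3 reversal was not tested. The cassette exons numbered 10 with a minimum of 2 FPKM as with 1.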
